A study of Mus musculus with 12 samples.

Results

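The 35 genes described here are endothelial genes, transcribed mainly by the cells that line blood vessels, read out in RNA from isolated mouse cardiomyocytes. They were taken by symbol from the table of raw counts, which holds 49568 genes. All 35 were present, and all 35 passed the filter on low counts that left 14712 genes tested. Cardiomyocytes came from male mice in 4 groups of 3 libraries, a sham and a TAC group for each of the genotypes control and dKO. TAC constricts the aorta by surgery, so that the left ventricle pumps against a higher pressure, and sham is the operation without the constriction. The control genotype is alphaMHC-MerCreMre/+, a tamoxifen-activated Cre transgene under the promoter of a cardiac myosin heavy chain. The dKO genotype is MHC-MerCreMre/+; Mrtf-a-/-; Mrtf-bflox/flox. Both genotypes therefore carried the Cre and both were given tamoxifen at 30 ug/g, once daily for 3 injections, when 8 weeks old. Per the labels' protocols surgery was done at 10 weeks and hearts were taken 7 days later at 11 weeks, while the series' design text gives 8 weeks for surgery. Mrtf-a and Mrtf-b encode the myocardin-related transcription factors, which appear in the count table as Mkl1 and Mkl2 and act as partners of serum response factor. Mrtf-a was deleted in every cell of the dKO animals, endothelial cells included, whereas Mrtf-b was removed by a Cre driven in cardiomyocytes. The comparisons ask how the endothelial genes in these preparations moved with pressure overload, with genotype, and whether their overload response differed between genotypes.

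Endothelial cells form the inner wall of every vessel, and in heart muscle a dense capillary bed runs along the myocytes. Their identity rests on junction proteins such as VE-cadherin, on tyrosine kinase receptors for vascular endothelial growth factor (VEGF) and angiopoietins, on Notch signalling between neighbouring cells, and on transcription factors of the ETS, SoxF and Kruppel-like families. Cardiac capillaries also carry proteins that bring fatty acids from the blood to the muscle. Cardiomyocytes do not use most of these genes, so in a cardiomyocyte preparation their RNA is read as that of accompanying endothelial cells, and fewer such cells and less RNA per cell cannot be told apart. A few members have other known sources: Fabp4 is also made by adipocytes and macrophages, and Cd34 by stromal progenitor cells.

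Total counts lay between 20082000 and 29675212 per library, so 3 counts correspond to 0.0935 to 0.184 CPM, counts scaled by library size, a floor that covers counting error only. Mkl1 itself had 7.58, 11.4 and 8.88 CPM across the sham controls, 9.32, 16.00 and 15.6 across the TAC controls, 2.15, 2.88 and 3.198 across sham dKO and 2.501, 2.93 and 2.22 across TAC dKO libraries. The log2 difference of dKO from control was -1.75 ± 0.27 (SE) after sham and -2.42 ± 0.27 after TAC, with edgeR adjusted p of 0.0409 and 0.00182, and all 6 dKO libraries lay below all 6 controls. Without the 2 libraries named below the sham difference was -1.61 with an edgeR adjusted p of 0.104. Mkl2, of which a floxed part is removed, had 44.1, 32.6 and 44.1 CPM across the sham controls, 35.96, 30.05 and 36.95 across the TAC controls, 15.2, 26.5 and 23.9 across sham dKO and 28.1, 18.1 and 24.5 across TAC dKO libraries, and its dKO libraries too were all below the controls. Cardiomyocyte markers summed to between 67775 and 174851 CPM and far exceeded every other list. The labels number the samples but do not say that they came from separate animals, so p-values measure the spread between these samples. The libraries dKO sham replicate 1 and dKO TAC replicate 2 stood apart from their groups: mitochondrially encoded genes took 16.5% and 15.3% of their counts, against 23.2% to 32.6% in the other 10, and their deviations fell with transcript length. Results that rest on them are given with and without them.

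The members were a small share of each library. They took 0.269%, 0.407% and 0.269% of all counts across the sham controls, 0.290%, 0.456% and 0.432% across the TAC controls, 0.263%, 0.347% and 0.450% across sham dKO, and 0.295%, 0.425% and 0.222% across TAC dKO libraries. Summed over the 35 genes the level was 2996, 4118 and 2970 CPM for the sham controls, 3037, 4158 and 3877 for the TAC controls, 3243, 3569 and 4409 for sham dKO, and 2755, 3535 and 2165 for TAC dKO libraries. In the same order the group means ± SD (n = 3) were 3361 ± 656, 3691 ± 583, 3740 ± 601 and 2819 ± 687 CPM. The dKO TAC group was lowest, but all 4 groups overlapped, and replicates of one group differed by as much as the group means.

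**Figure D1:**
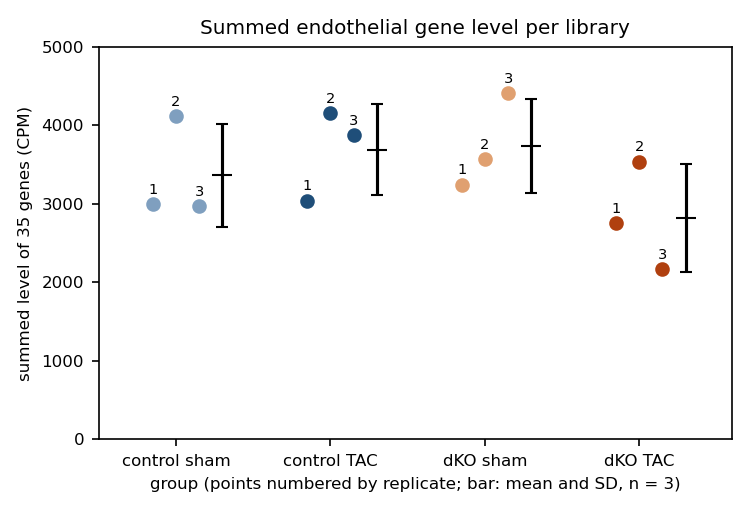
Summed level of the 35 endothelial genes in CPM for each of the 12 libraries, in 4 groups of 3, with points numbered by replicate and bars for the group mean and SD. The dKO TAC group holds the lowest library at 2165 CPM and dKO sham the highest at 4409 CPM, and the ranges of all 4 groups overlap.

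On a per-length scale, in TPM (counts over the length of the main transcript, scaled to a common total), Fabp4 (chr3:10204088-10208576, GRCm38), the fatty acid carrier of capillary cells, led by far with a mean of 1240 TPM over the 12 libraries. Gpihbp1 (chr15:75596628-75599481), which moves lipoprotein lipase to the capillary lumen, followed at 202 TPM, and Egfl7 (chr2:26580014-26593120), a secreted matrix protein of endothelium, came after it at 132 TPM. Cd34, Cdh5, Eng and Pecam1 lay close together at 130.4, 122, 121 and 117 TPM, nearer to each other than the spread of any of them within a group. Esam at 89.4, Klf2 at 75.95, Kdr at 73.1, Emcn at 68.2, Tie1 at 61.3 and Rgcc at 57.7 TPM came next. Between 46.5 and 12.3 TPM lay, in falling order, Icam2, Flt1, Sox18, Robo4, Cldn5, Ecscr, Tmem88, Rasip1, Mmrn2, Ptprb, Aplnr, Tek, Nos3, Dll4, Sox7, Notch4, Erg and Vwf. The lowest were Notch1 at 11.2, Fli1 at 9.89, Plvap at 9.14 and Sox17 at 7.87 TPM. The order thus had genes of capillary lipid transport at the top, junction proteins behind them, and transcription factors and Notch genes at the lower end, with Klf2 and Sox18 as the better expressed factors. No member was at 0 in any library.

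Within a group the members moved together from library to library. Control sham replicate 2 was the highest of its group for 33 of 35 members, against 41.3% of all genes tested, and control TAC replicate 1 was the lowest of its group for 29, against 40.2%. In the dKO groups, sham replicate 3 was highest for 27 members (31.5% of all genes), TAC replicate 2 highest for 32 (44.8%) and TAC replicate 3 lowest for 31 (33.2%). Other non-myocyte markers moved with some of these libraries. The pericyte and smooth muscle list summed to 1352, 1894 and 1268 CPM in control sham, with the same replicate 2 highest, and the macrophage list to 177, 378 and 177 CPM. Cardiomyocyte markers in those 3 libraries summed to 113365, 86341 and 112693 CPM, lowest in replicate 2. The part of these lists in the members' differences between replicates was not tested.

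**Figure D2:**
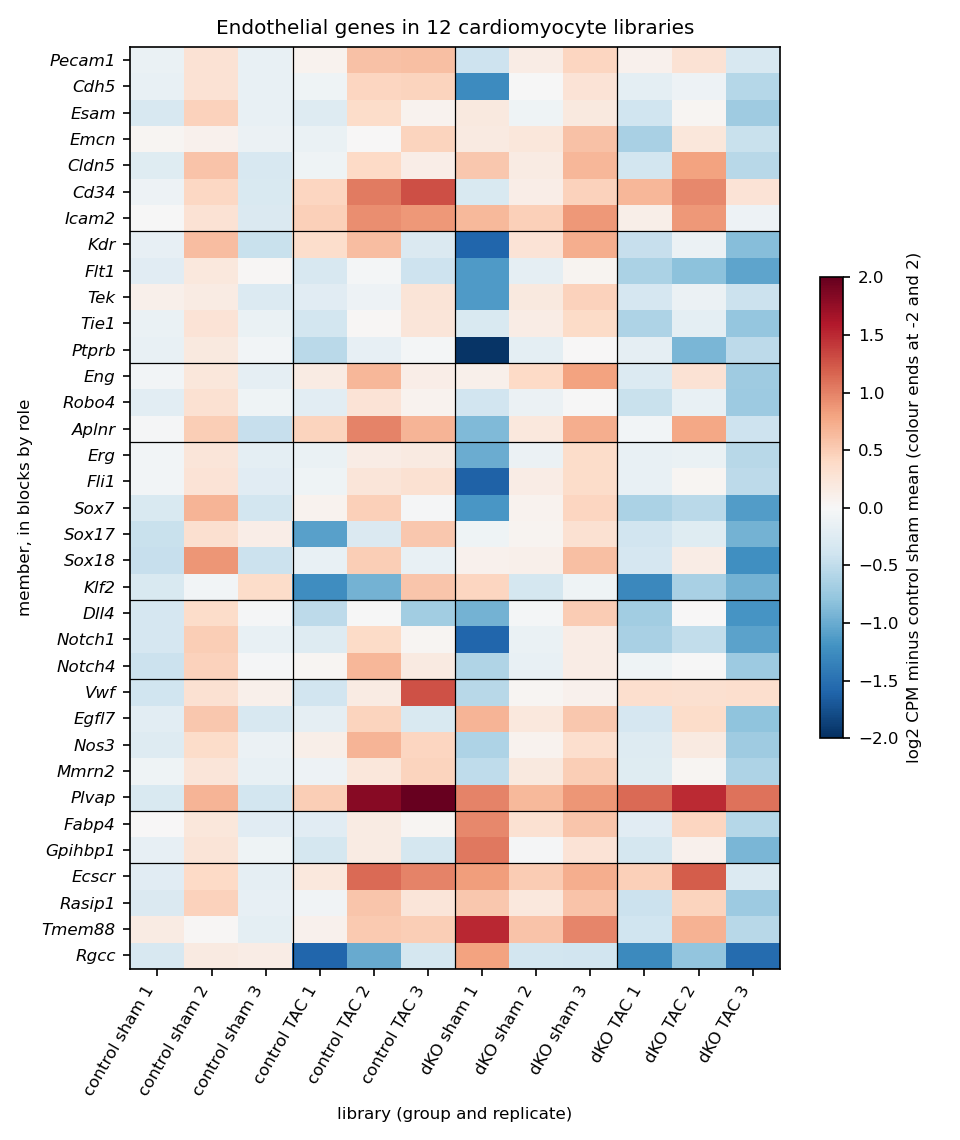
Log2 CPM of the 35 members minus their mean in control sham, for each of 12 libraries (columns) and grouped by role (rows), with the colour scale ending at -2 and 2. Whole columns shift together, such as control sham replicate 2 (higher) and dKO TAC replicate 3 (lower). Long members such as Ptprb, Kdr and Notch1 are at their lowest in dKO sham replicate 1, and Plvap is at its highest in control TAC replicate 3.

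In dKO sham replicate 1 the members split by transcript length. Against the mean of the other 2 libraries of the group, the 12 members with transcripts of at least 3747 nt were all lower, with a median log2 difference of -1.13, and the 12 members of at most 1865 nt had a median of 0.26. The rank correlation of this difference with length was -0.82 over the 35 members and -0.70 over 9743 genes, given as a description since the points share a library. In dKO TAC replicate 2 the short members had a median of 0.84 and the long ones of 0.38, with a correlation of -0.62 in both sets. In control libraries the correlation over members lay between -0.12 and 0.17. Long members such as Kdr, Ptprb and Notch1 therefore have a low value in 1 of 3 dKO sham libraries, and short members such as Fabp4, Gpihbp1, Tmem88 and Rgcc a high one.

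**Figure D3:**
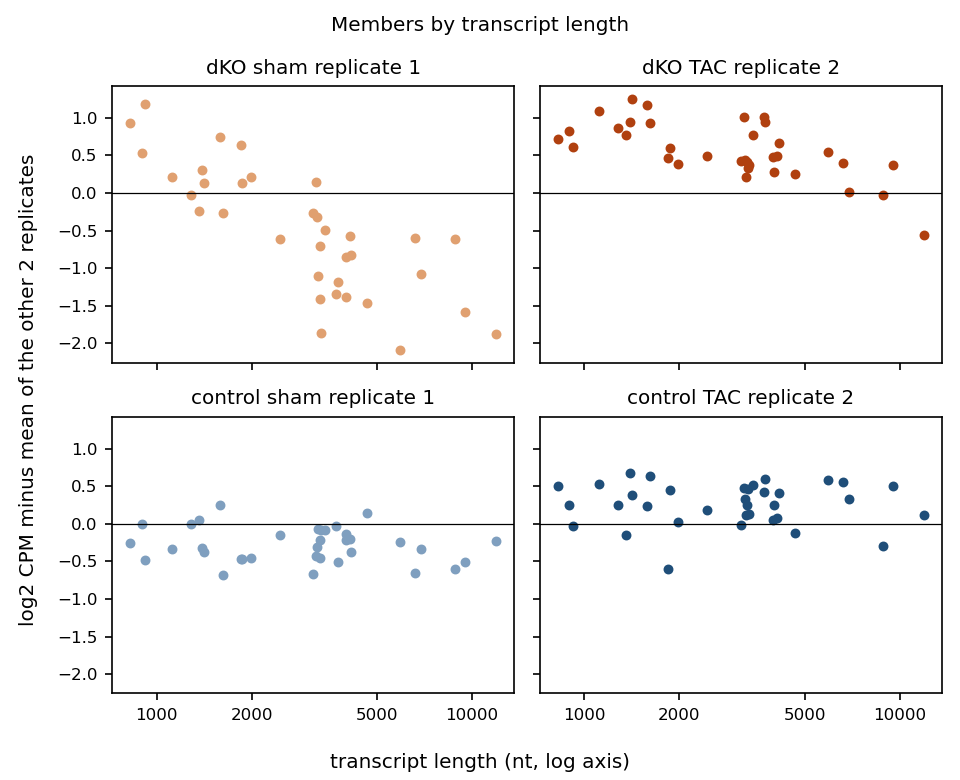
Log2 CPM of each of the 35 members minus the mean of the other 2 replicates of its group, against transcript length in nt on a log axis, in the 2 libraries that stood apart (top) and in 2 control libraries (bottom). Points fall with length in dKO sham replicate 1 (median 0.26 for short and -1.13 for long members) and in dKO TAC replicate 2, and show no such fall in the control libraries shown.

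The tests were made by edgeR's quasi-likelihood F test over all 14712 genes, with changes given as log2 ± SE and p-values adjusted by the Benjamini-Hochberg method. A gene was called at an adjusted p under 0.05. In none of the 5 comparisons was any of the 35 members called. Limma-voom also called none, while DESeq2 called 5 members in all, named below. The share of all genes called was 2.25% for TAC in control, 7.39% for TAC in dKO, 0.068% for dKO against control after sham, 0.428% for dKO against control after TAC, and 0% for the difference of the TAC responses. What the members showed instead was a common sign in 3 of the comparisons, with a median that differed from that of all genes.

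TAC in control mice went with little shift of the endothelial genes as a group and with higher estimates of a few. The estimate was above 0 for 23 of 35 members, against 50.1% of all genes, and the median log2 change was 0.11, against 0.00 for all genes. At an unadjusted p under 0.05, 4 members were higher (10.8% of all genes) and 1 lower (6.1%). Plvap, Cd34, Icam2 and Ecscr had the highest estimates and Rgcc the lowest. The 3 TAC libraries lay above the 3 sham libraries for 2 members, Cd34 and Icam2 (11% of all genes), and below them for 1, Rgcc (10.8%). These shares lay near those over all genes. The median rested on single libraries: with replicate 1, 2 or 3 of the sham controls left out it was 0.02, 0.33 and -0.01, the last with 19 of 35 estimates below 0, and with the same replicates of the TAC controls left out it was 0.19, 0.03 and 0.07.

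TAC in dKO mice went with lower estimates for most members. The estimate was below 0 for 31 of 35 members, against 50.5% of all genes, and the median log2 change was -0.38, against -0.01 for all genes. Cardiomyocyte markers had a median of -0.69 in this comparison, with 9 of 14 below 0 and 1 called lower (3.19% of all genes). Pericyte and smooth muscle markers had a median of -0.20, while fibroblast and macrophage markers had medians above 0, at 1.29 and 0.57. At an unadjusted p under 0.05, 8 members were lower, against 14.8% of all genes, and none was higher. They were Rgcc, Tmem88, Gpihbp1, Tie1, Fabp4, Emcn, Klf2 and Eng, which are spread over the junction, receptor, transcription factor, lipid and small regulator groups. The groups did not overlap, in the lower direction, for Rgcc, Klf2 and Sox17 (14.5% of all genes) and, in the higher direction, for Vwf and Plvap (16.2%). With replicate 3 of the sham dKO libraries left out the median was -0.18, and with replicate 3 of the TAC dKO libraries left out -0.21, each with 23 of 35 estimates below 0. When replicate 2 of the TAC dKO libraries was left out it was -0.65.

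**Figure D4:**
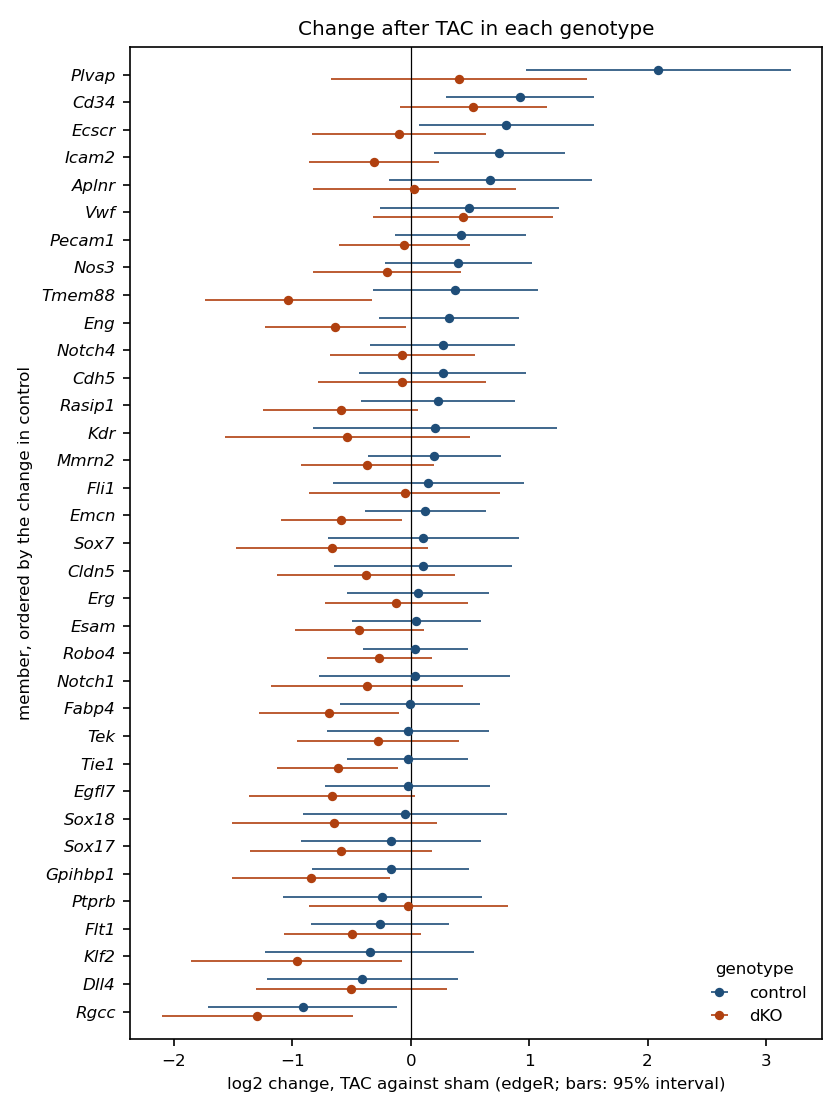
Log2 change from sham to TAC of the 35 members in control and in dKO mice, with 95% intervals from the edgeR fit, ordered by the change in control. Most dKO estimates lie to the left of 0 (31 of 35) and to the left of the control estimates (34 of 35), with wide intervals that overlap for most members.

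After sham surgery the median difference between genotypes lay near that of all genes. The estimate was above 0 for 22 of 35 members, against 51.5% of all genes, and the median was 0.08, against 0.02. At an unadjusted p under 0.05, 3 members were higher in dKO (6.27% of all genes), namely Tmem88, Icam2 and Fabp4, and none was lower. All 3 dKO libraries lay above all 3 controls for 5 members, Tmem88, Icam2, Fabp4, Ecscr and Emcn (9.27% of all genes). All 5 have transcripts of at most 1582 nt, and for Tmem88, Fabp4 and Ecscr the highest dKO sham value is that of replicate 1. The sign of the median depended on single libraries. Leaving out replicate 1 or 3 of the sham controls gave -0.02 in each case, and leaving out their replicate 2 gave 0.24. Among sham dKO libraries, leaving out replicate 3 gave -0.09 and leaving out replicate 1 gave 0.25.

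After TAC every member was estimated lower in dKO than in control. The estimate was below 0 for 35 of 35 members, against 54% of all genes, and the median was -0.40, against -0.03. Other lists shared this sign: 15 of 15 macrophage, 12 of 13 pericyte and smooth muscle and 12 of 14 fibroblast markers were below 0. Their medians were -0.34, -0.41 and -0.25. Of the cardiomyocyte markers 8 of 14 were below 0, with a median of -0.15. The sign was thus not particular to the endothelial genes. At an unadjusted p under 0.05, 3 members were lower in dKO (4.09% of all genes), namely Sox7, Robo4 and Nos3. Libraries did not overlap for 5 members, Sox7, Flt1, Notch1, Notch4 and Cdh5, all lower in dKO (7.79% of all genes). With dKO TAC replicate 3 left out the median was -0.24 and 29 of 35 estimates were below 0, and with replicate 2 of that group left out the median was -0.62. The estimates below 0 numbered 30 and 31 when replicate 2 or 3 of the TAC controls was left out, and 33 when dKO TAC replicate 1 was. Members share their libraries and move together in them, so a common sign over 35 genes is not 35 separate observations. This comparison and the preceding ones share libraries too.

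The difference of the TAC responses, taken as the log2 change in dKO minus that in control, was below 0 for 34 of 35 members, against 55.5% of all genes, Ptprb being the exception. Its median was -0.57, against -0.06. It was -0.32 without dKO TAC replicate 3, and -0.38 with 28 of 35 below 0 without dKO sham replicate 3. Markers of other cells had medians of -0.58 (macrophage), -0.46 (fibroblast), -0.43 (pericyte and smooth muscle) and -0.39 (cardiomyocyte). In these lists 13 of 15, 11 of 14, 11 of 13 and 10 of 14 estimates were below 0. Blood and lymphocyte markers went the other way, with a median of 0.92. At an unadjusted p under 0.05, 4 members had a lower response in dKO (2.29% of all genes): Tmem88 at -1.41 ± 0.46, Icam2 at -1.06 ± 0.36, Eng at -0.96 ± 0.39 and Plvap at -1.68 ± 0.71. Emcn followed at -0.71 ± 0.33. The adjusted p of all 5 was 0.841 by edgeR, and leaving out any 1 library kept their sign. The 95% interval for Tmem88 ran from -2.40 to -0.42 and that for Plvap from -3.22 to -0.15, which spans differences from small to large.

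Among junction and adhesion proteins, Cd34 (chr1:194938819-194961279), a sialomucin of capillary endothelium, measured 111, 158 and 95.8 CPM across the sham controls, 159.5, 243 and 289.6 across the TAC controls, 95.9, 131 and 164 across sham dKO and 189, 231 and 144 across TAC dKO libraries. Control TAC lay above control sham without overlap, and in dKO the lowest TAC value fell within the sham range. The change with TAC was 0.92 ± 0.29 in control and 0.53 ± 0.29 in dKO, with edgeR adjusted p of 0.124 and 0.251. DESeq2 called it higher in control, as it did Plvap, 2 members against 4.38% of all genes. Icam2 (chr11:106377656-106388075), an adhesion protein that binds leukocyte integrins, gave 22.9, 28.1 and 18.9 CPM across the sham controls, 31.9, 43.6 and 41.7 across the TAC controls, 35.9, 31.8 and 42.1 across sham dKO and 25.05, 42.1 and 21.3 across TAC dKO libraries. Its control sham libraries were the lowest 3 of the series apart from dKO TAC replicates 1 and 3, which fell among them. TAC changed it by 0.75 ± 0.25 in control (edgeR adjusted p = 0.153) and by -0.31 ± 0.25 in dKO (0.443). Emcn, a sialomucin of capillaries and veins, had 49.2, 50.9 and 44.5 CPM across the sham controls, 44.01, 48.2 and 65.3 across the TAC controls, 54.3, 56.6 and 72.6 across sham dKO and 30.6, 56.3 and 35.3 across TAC dKO libraries. Its dKO TAC values held both the series' lowest levels and 1 level inside the sham range. The other 4, VE-cadherin (Cdh5), Pecam1, Esam and the tight junction protein Cldn5, had TAC changes of 0.04 to 0.42 in control and -0.43 to -0.05 in dKO. All 7 of this group had a lower estimate in dKO than in control after TAC, between -0.56 for Cdh5 and -0.07 for Cldn5.

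The VEGF and angiopoietin receptors had estimates near 0 for TAC in control. The 5 estimates lay between -0.26 and 0.20 and none had an unadjusted p under 0.05. In dKO the 5 estimates were all below 0, from -0.62 to -0.02. Tie1, a partner of the angiopoietin receptor, had 132, 175 and 132 CPM across the sham controls, 112, 147 and 172 across the TAC controls, 118, 161 and 189 across sham dKO and 94.04, 126 and 84.7 across TAC dKO libraries. The dKO TAC libraries had the lowest values except for replicate 2, which lay above dKO sham replicate 1, and the change was -0.62 ± 0.24 (edgeR adjusted p = 0.12). Flt1, the VEGF receptor that acts largely as a decoy, had 183, 247 and 216 CPM across the sham controls, 171, 208 and 161 across the TAC controls, 97.3, 189 and 223 across sham dKO and 139, 121 and 103 across TAC dKO libraries. The 3 dKO TAC libraries were below the 3 control TAC libraries, and dKO sham replicate 1 was the lowest of all 12. The genotype difference after TAC was -0.58 ± 0.27 (edgeR adjusted p = 0.567). Kdr, the main signalling receptor for VEGF, Tek, the angiopoietin receptor, and Ptprb, the phosphatase that acts on it, had their lowest value of the series in dKO sham replicate 1, at 76.1, 26.6 and 52.9 CPM. These are long transcripts, which is where that library was low.

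Among the other surface receptors, Eng (chr2:32646595-32682669), a co-receptor for TGF-beta family ligands, had 192, 233 and 175 CPM across the sham controls, 221, 314 and 217 across the TAC controls, 213, 261 and 346 across sham dKO and 164, 242 and 122 across TAC dKO libraries. It was highest in dKO sham replicate 3 and lowest in dKO TAC replicate 3, and the groups overlapped in all 4 comparisons of 2 groups. The TAC change was 0.33 in control and -0.64 ± 0.27 in dKO (edgeR adjusted p = 0.156), and dKO exceeded control after sham by 0.45 ± 0.27 (0.516). Robo4, a guidance receptor that limits vessel leak, had 57.5, 81.6 and 62.3 CPM across the sham controls, 57.2, 79.8 and 69.7 across the TAC controls, 50.96, 61.3 and 66.1 across sham dKO and 48.5, 59.7 and 40.1 across TAC dKO libraries. The genotype difference after TAC was -0.48 ± 0.20 with an edgeR adjusted p of 0.517, 1 dKO library lying inside the control range. Aplnr, the apelin receptor, had a TAC change of 0.67 ± 0.40 in control and 0.03 ± 0.39 in dKO.

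Of the transcription factors, the 2 ETS proteins Erg and Fli1 had estimates near 0 in both genotypes with all 12 libraries, with TAC changes of -0.05 ± 0.37 for Fli1 and -0.12 ± 0.28 for Erg in dKO and of 0.15 ± 0.37 and 0.06 ± 0.28 in control. The dKO estimates were -0.58 ± 0.20 for Fli1 and -0.48 ± 0.21 for Erg, neither called, when both libraries that stood apart were left out. Sox7 (chr14:63943673-63950732), a SoxF factor of vascular development, had 26.5, 52.1 and 25.2 CPM across the sham controls, 34.1, 45.5 and 31.96 across the TAC controls, 14.6, 34.4 and 43.8 across sham dKO and 21.1, 22.4 and 15.1 across TAC dKO libraries. After TAC all dKO libraries were below all control libraries, at -0.93 ± 0.37 (edgeR adjusted p = 0.468), the smallest p of the members in that comparison. Sox17 and Sox18, the other SoxF factors, differed there by -0.36 ± 0.35 and -0.46 ± 0.40. Klf2, which flowing blood induces in endothelium, spread from 39.4 to 137 CPM within the control TAC group alone, and its TAC change was -0.35 ± 0.41 in control and -0.96 ± 0.41 in dKO. All 3 dKO TAC values of Klf2, 38.5, 59.97 and 48.5 CPM, were below the dKO sham values of 125, 73.3 and 87.8.

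The Notch genes Dll4, the ligand of sprouting tip cells and arteries, and Notch1 and Notch4, its receptors, had TAC changes from -0.41 to 0.27 in control and from -0.50 to -0.07 in dKO. Notch1 had 51.8, 92.1 and 59.1 CPM across the sham controls, 54.6, 85.9 and 67.1 across the TAC controls, 21.9, 59.7 and 72.98 across sham dKO and 41.7, 46.8 and 31.4 across TAC dKO libraries. The 3 dKO TAC libraries lay below the 3 control TAC libraries, and dKO sham replicate 1 was the lowest of the series. The difference between genotypes after TAC was -0.79 ± 0.37 for Notch1 (edgeR adjusted p = 0.574) and -0.55 ± 0.28 for Notch4 (0.627).

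Plvap (chr8:71497765-71511752) forms the diaphragms of fenestrae and caveolae and is low in normal heart capillaries. It had 3.11, 6.16 and 2.97 CPM across the sham controls, 5.43, 13.6 and 33.04 across the TAC controls, 7.61, 6.003 and 7.11 across sham dKO and 8.42, 10.8 and 8.17 across TAC dKO libraries. The 3 control TAC libraries spanned a wide range, the lowest of them inside the sham range and the highest in replicate 3, which also had the highest summed fibroblast markers, at 11374 CPM against 1663 and 4449 in the other 2, and the highest macrophage markers, at 796 CPM. The change was 2.09 ± 0.51 in control with an edgeR adjusted p of 0.0581, and 1.23 without control TAC replicate 3, with an adjusted p of 0.231. It was called without control TAC replicate 1 (log2 2.51, edgeR adjusted p = 0.00384), without control sham replicate 2 (2.51, 0.0476) and without dKO sham replicate 1 (2.09, 0.0457). In these settings 5.83%, 2.28% and 3.4% of all genes were called higher. In dKO the change was 0.41 ± 0.50. Whether the fibroblast and macrophage RNA of these libraries bears on the Plvap values was not tested.

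Nos3, the endothelial nitric oxide synthase, had 39.1, 60.2 and 42.9 CPM across the sham controls, 50.3, 74.6 and 62.9 across the TAC controls, 30.3, 48.6 and 59.1 across sham dKO and 38.8, 52.9 and 28.4 across TAC dKO libraries. The genotype difference after TAC was -0.64 ± 0.29 (edgeR adjusted p = 0.543), with dKO TAC replicate 2 inside the control range. An annotated antisense gene covers 25.2% of the exon length of Nos3, and its counts may hold reads of both, since whether counting used strand was not stated. Egfl7 had 80.6, 135 and 74.4 CPM across the sham controls, 82.4, 127 and 75.8 across the TAC controls, 149, 108 and 136 across sham dKO and 73.5, 120.0 and 53.3 across TAC dKO libraries. Its groups overlapped throughout, with TAC changes of -0.03 ± 0.32 in control and -0.67 ± 0.32 in dKO. Vwf, the clotting protein stored in endothelial granules, had TAC changes of 0.50 ± 0.35 and 0.44 ± 0.35, and Mmrn2, a matrix protein that binds VEGF, of 0.20 ± 0.26 and -0.37 ± 0.26.

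The capillary lipid genes were the members with the most RNA per length, and neither had an unadjusted p under 0.05 for TAC in control. Fabp4 had 547, 640.4 and 467 CPM across the sham controls, 470.1, 614 and 565 across the TAC controls, 1061, 673 and 805 across sham dKO and 470.0, 738 and 369 across TAC dKO libraries. All dKO sham libraries lay above all control sham libraries, led by dKO sham replicate 1, and in dKO TAC 2 of 3 libraries lay below every dKO sham library. Its TAC change was -0.00 ± 0.27 in control and -0.69 ± 0.27 in dKO, with an edgeR adjusted p of 0.131 in dKO. After sham dKO exceeded control by 0.62 ± 0.27 (edgeR adjusted p = 0.507). Over the alternative settings the Fabp4 change in dKO ran from -1.01 to -0.285 and the sham difference from 0.157 to 0.757. Gpihbp1 had 81.2, 109 and 85.5 CPM across the sham controls, 71.5, 102 and 71.8 across the TAC controls, 189, 89.5 and 110.2 across sham dKO and 71.3, 96.8 and 48.6 across TAC dKO libraries. The value of dKO sham replicate 1 was the highest of the series. The TAC change in dKO was -0.84 ± 0.31 (edgeR adjusted p = 0.105), and DESeq2 called it lower together with Tmem88 and Rgcc, 3 members against 7.79% of all genes. Without both libraries that stood apart the Gpihbp1 change was -0.74 ± 0.24 and not called (edgeR adjusted p = 0.0821). Over the alternative settings it ran from -1.11 to -0.346.

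Of the small regulators, Rgcc (chr14:79288756-79301645), a regulator of cell cycle that is abundant in endothelium, had 31.7, 44.9 and 43.7 CPM across the sham controls, 13.2, 19.8 and 30.9 across the TAC controls, 69.4, 30.8 and 30.5 across sham dKO and 16.4, 22.99 and 13.6 across TAC dKO libraries. TAC libraries lay below sham libraries in both genotypes without overlap. The changes were -0.91 ± 0.37 in control and -1.30 ± 0.37 in dKO, with edgeR adjusted p of 0.227 and 0.0543. Rgcc was called lower in dKO when the TAC control replicate 1 or 3, or dKO sham replicate 3, was left out. Of all genes, 3.86%, 3.22% and 4.85% were called lower in these settings. Without both libraries that stood apart the Rgcc change in dKO was -1.03 ± 0.33 and not called (edgeR adjusted p = 0.074). Tmem88 (chr11:69396519-69398234), a membrane protein that dampens Wnt signalling, had 21.6, 19.6 and 16.9 CPM across the sham controls, 20.5, 27.8 and 27.04 across the TAC controls, 55.01, 28.5 and 37.7 across sham dKO and 14.7, 31.2 and 13.1 across TAC dKO libraries. All dKO sham libraries exceeded all control sham libraries, by 1.06 ± 0.32 (edgeR adjusted p = 0.507), and in dKO TAC replicates 1 and 3 it was at the lowest levels of the series. The TAC change was 0.38 ± 0.32 in control and -1.03 ± 0.32 in dKO (0.0696). The oppositely oriented gene Naa38 covers 10.2% of its exon length. Ecscr, a cell surface protein of endothelium, had 11.1, 17.1 and 11.5 CPM across the sham controls, 15.1, 28.5 and 25.9 across the TAC controls, 23.1, 18.5 and 21.4 across sham dKO and 18.2, 29.9 and 10.7 across TAC dKO libraries, and its change with TAC in control was 0.81 ± 0.34 (edgeR adjusted p = 0.25). Rasip1, a Rap1 effector needed for vessel lumens, had TAC changes of 0.23 ± 0.30 and -0.59 ± 0.30. On its own strand it shares 20.4% of its exon length with Izumo1.

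When both libraries that stood apart (dKO TAC replicate 2 and dKO sham replicate 1) were left out, the estimates for TAC in dKO were lower. The median log2 change of the members went from -0.38 to -0.77, and 32 of 35 estimates were below 0. Of the 35 members, 9 fell by the edgeR test, against 4.66% of all genes, and 25 had an unadjusted p under 0.05 in the lower direction, against 14.1% of all genes. The 9 were Tmem88 at -1.25 ± 0.20, Dll4 at -1.18 ± 0.30, Eng at -1.09 ± 0.24, Emcn at -0.97 ± 0.20, Tie1 at -0.97 ± 0.21, Fabp4 at -0.82 ± 0.21, Mmrn2 at -0.78 ± 0.21, Flt1 at -0.77 ± 0.20 and Tek at -0.71 ± 0.19, with edgeR adjusted p from 0.00752 to 0.0472. They belong to the junction, receptor, Notch, secreted, lipid and small regulator groups. Aplnr moved from 0.03 to -0.71, Dll4 from -0.50 to -1.18 and Kdr from -0.54 to -1.16, of which Dll4 was called. In this setting each dKO group holds 2 libraries, and the TAC library left out is the one with the highest value for 32 of 35 members, so the 2 remaining are the lower ones. The sham library left out had the lowest value of its group for 23 of 35 members (47.1% of all genes). Leaving it out therefore also moves the TAC estimates of those members down. Leaving out only dKO TAC replicate 2 gave 3 calls (Emcn, Fabp4 and Tmem88), against 2.38% of all genes, and leaving out only dKO sham replicate 1 gave 1 (Flt1), against 2.55%, a share near the members' own.

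**Figure D5:**
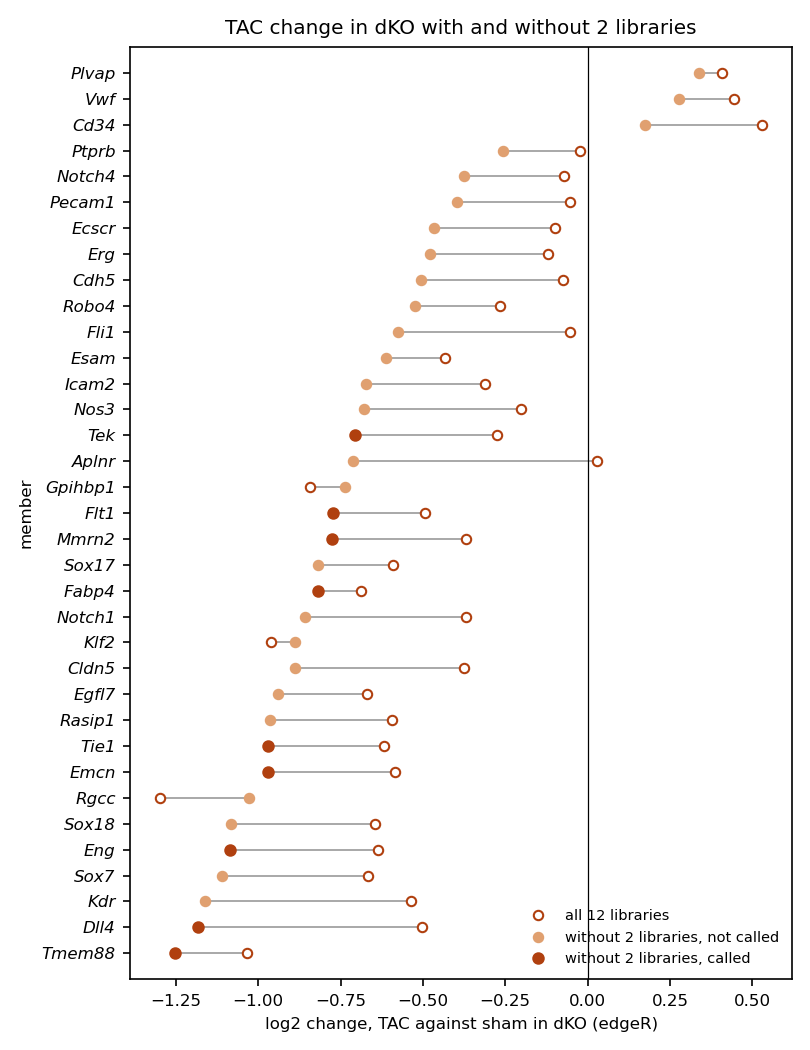
Log2 change from sham to TAC in dKO of the 35 members with all 12 libraries (open points) and without dKO TAC replicate 2 and dKO sham replicate 1 (filled points, dark where called by edgeR). Most members shift to the left when the 2 libraries are left out, and 9 of them are then called, while Cd34, Vwf and Plvap stay to the right of 0.

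The same setting had smaller effects elsewhere, and the same limit holds where the dKO groups enter. In control, Icam2 was called higher with TAC at 0.75 ± 0.18 (edgeR adjusted p = 0.0475), 1 member against 3.36% of all genes. No control library was left out in this setting, and with all 12 libraries the Icam2 estimate was 0.75 too, with an SE of 0.25. All groups share 1 fit, so the SE moved although the control libraries were the same. Between genotypes after TAC, Tmem88 was called lower in dKO at -0.85 ± 0.18 (edgeR adjusted p = 0.038), 1 member against 1.04% of all genes, and 19 members had an unadjusted p under 0.05 in that direction, against 10.1%. For the difference of the TAC responses the median was -0.82 and 19 members had an unadjusted p under 0.05 in the lower direction, against 6.63% of all genes, while none was called by edgeR. After sham the median difference between genotypes was 0.25, with no call.

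The other 38 endothelial genes of a wider list, none of them a member, had medians close to the members' in all 5 comparisons: 0.12 for TAC in control, -0.29 for TAC in dKO, 0.02 for genotype after sham, -0.40 for genotype after TAC and -0.50 for the difference of responses. None was called with TAC in control, where 7 had an unadjusted p under 0.05, against 16.9% of all genes. In dKO 6 of 38 fell with TAC, against 3.19% of all genes, and none rose (4.2%). Without the 2 libraries that stood apart 14 fell, against 4.66% of all genes, these 6 among them. Without the 2 libraries Cd93 was also called higher (3.36% of all genes) and Car4 and Adgrf5 lower (1.81%) with TAC in control. Ushbp1, Car4 and Shank3 were then called lower in dKO after TAC (1.04%). The carbonic anhydrase of capillary walls, Car4, had 27.7, 29.6 and 29.6 CPM across the sham controls, 19.9, 17.6 and 18.3 across the TAC controls, 39.5, 29.3 and 36.9 across sham dKO and 10.04, 16.2 and 10.7 across TAC dKO libraries, with TAC below sham in both genotypes, and changed in dKO by -1.51 ± 0.20 (edgeR adjusted p = 0.00271). Gata2, a transcription factor of endothelial and blood cells, changed by -1.13 ± 0.26 (edgeR adjusted p = 0.0241) and Ushbp1 by -1.002 ± 0.231 (0.0246), and Tcf15, Slc9a3r2 and Kank3 fell too. Without the 2 libraries Car4 changed by -1.68 ± 0.14 (edgeR adjusted p = 0.00089).

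Among 38 tested genes of angiogenic ligands and their signalling partners, 1 fell with TAC in control, against 0.347% of all genes. This was Angpt1, the ligand of Tek, which changed by -1.49 ± 0.29 (edgeR adjusted p = 0.024). It had 34.9, 21.3 and 23.5 CPM across the sham controls, 8.91, 7.86 and 11.6 across the TAC controls, 11.97, 26.7 and 17.5 across sham dKO and 11.5, 9.84 and 12.1 across TAC dKO libraries. All 3 control TAC values were below all 3 sham values. In dKO 1 rose and 1 fell with TAC, against 4.2% and 3.19% of all genes. Hif1a, the oxygen-regulated transcription factor, changed by 1.61 ± 0.31 (0.0122 by edgeR), with its lowest level of 28.6 CPM in dKO sham replicate 1. Id1, a target of BMP signalling in endothelium, changed by -1.43 ± 0.39 (edgeR adjusted p = 0.0449). Without the 2 libraries that stood apart, Hif1a and the BMP receptor Bmpr2 were called higher in dKO, against 5.93% of all genes. In dKO 6 genes were then lower, against 4.66%, namely Id1, Cxcl12, Efnb2, Pgf, Bmp6 and Epas1. In control Hif1a was called higher (3.36% of all genes) beside the lower Angpt1 (1.81%). Between genotypes, with all 12 libraries, 0 genes of the ligand list were called by edgeR, with 4 after sham and 8 after TAC at an unadjusted p under 0.05. The wider endothelial list also had 0 called, with 2 and 6 at such a p. Of all genes, 9.25% after sham and 8.87% after TAC had such a p. Bmpr2 and Hif1a were called higher in dKO after TAC when the 2 libraries were left out (2.37% of all genes). Of the vessel subtype lists, Nts of the lymphatic list rose with TAC in control, by 1.66 ± 0.34 (0.0292 by edgeR), at levels of at most 2.77 CPM in any library, and in dKO Cytl1 of the endocardial list changed by -1.49 ± 0.39 (0.0385) and Lrg1 of the venous list by -1.75 ± 0.46 (0.04). Without the 2 libraries Lrg1 changed by -1.17 ± 0.24 (edgeR adjusted p = 0.0192). In dKO sham replicate 1 Lrg1 was at 91.1 CPM, against 26.1 and 24.2 in the other 2 libraries of that group. The arterial list, which includes the member Dll4, had 0 of 10 genes called by edgeR in any comparison with all 12 libraries. For TAC in each genotype 2 had an unadjusted p under 0.05, against 16.9% of all genes in control and 27.6% in dKO. Without the 2 libraries Unc5b was called higher in control (3.36% of all genes) and Dll4 and Efnb2 lower in dKO (4.66%). In that setting Lyve1 of the lymphatic list was lower in dKO after TAC (1.04% of all genes).

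Markers of other cell types were present in all 4 groups, and their summed ranges overlapped between some groups and not between others. Fibroblast markers rose with TAC in 7 of 14 genes in control (1.9% of all genes) and 6 of 14 in dKO (4.2%), where 1 fell (3.19%). Their summed level was 1069 to 1899 CPM for sham controls, 1663 to 11374 for TAC controls, 1180 to 1640 for sham dKO and 3607 to 4679 for TAC dKO. Without the 2 libraries that stood apart 3 of 14 rose in dKO (Postn, Mfap5 and Cilp), against 5.93% of all genes. Col1a1, Col1a2 and Col3a1 then had edgeR adjusted p of 0.0754, 0.0622 and 0.07. Macrophage markers had 0 of 15 genes called by edgeR and 12 with an unadjusted p under 0.05 in control, against 16.9% of all genes. Their sums were 177 to 378 CPM for sham controls, 248 to 796 for TAC controls, 275 to 339 for sham dKO and 296 to 538 for TAC dKO. Of the macrophage markers, Fcgr1 was called higher in control when the 2 libraries were left out (3.36% of all genes). The pericyte and smooth muscle list had 1 of 13 genes called, Cnn1, higher with TAC in control (1.9% of all genes). The sum of that list ran from 759 to 1894 CPM over the 12 libraries. In dKO 4 of the 13 fell with TAC when the 2 libraries were left out, against 4.66% of all genes. They were the pericyte channel genes Kcnj8 and Abcc9 with Vtn and Colec11, in the direction of the 9 members called in that setting. Acta2 was then lower in dKO after TAC (1.04% of all genes). Lymphatic markers summed to 47.2 to 108 CPM and blood markers to 11.3 to 103 CPM. Of all lists, 1 gene, from the lymphatic list, was at 0 in every library. The part of these cells in the members' values was not tested.

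The endothelial ETS factors Erg and Fli1 bind DNA at a GGAAG core, so the promoters of 4 members that had among the smallest p in one of the comparisons are shown, 1 each for TAC in control (Cd34), TAC in dKO (Rgcc), genotype after sham (Eng) and genotype after TAC (Robo4). Each window runs from 250 bases before to 50 after a RefSeq transcription start (GRCm38.p6) and is written 5′ to 3′ on the strand of the gene, with GGAAG and its reverse complement CTTCC in capitals. The windows are chr1:194938571-194938870 (plus strand) for Cd34, chr14:79301586-79301885 (minus strand) for Rgcc, chr2:32646345-32646644 (plus strand) for Eng and chr9:37401722-37402021 (plus strand) for Robo4.
Cd34: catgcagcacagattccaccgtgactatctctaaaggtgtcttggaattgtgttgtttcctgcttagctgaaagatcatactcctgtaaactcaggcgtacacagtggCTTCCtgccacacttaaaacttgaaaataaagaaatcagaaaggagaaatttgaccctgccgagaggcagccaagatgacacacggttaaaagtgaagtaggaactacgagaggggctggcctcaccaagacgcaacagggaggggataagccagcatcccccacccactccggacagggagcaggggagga
Rgcc: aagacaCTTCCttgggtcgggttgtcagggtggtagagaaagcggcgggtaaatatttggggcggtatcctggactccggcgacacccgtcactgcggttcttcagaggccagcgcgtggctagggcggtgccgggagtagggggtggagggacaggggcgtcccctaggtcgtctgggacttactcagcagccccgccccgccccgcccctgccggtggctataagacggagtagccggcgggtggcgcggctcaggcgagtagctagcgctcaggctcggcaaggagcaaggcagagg
Eng: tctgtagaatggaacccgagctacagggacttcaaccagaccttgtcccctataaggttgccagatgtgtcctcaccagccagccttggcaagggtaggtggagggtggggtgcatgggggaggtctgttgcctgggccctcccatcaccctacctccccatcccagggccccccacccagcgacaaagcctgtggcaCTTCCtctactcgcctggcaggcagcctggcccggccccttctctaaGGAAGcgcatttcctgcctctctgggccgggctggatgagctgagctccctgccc
Robo4: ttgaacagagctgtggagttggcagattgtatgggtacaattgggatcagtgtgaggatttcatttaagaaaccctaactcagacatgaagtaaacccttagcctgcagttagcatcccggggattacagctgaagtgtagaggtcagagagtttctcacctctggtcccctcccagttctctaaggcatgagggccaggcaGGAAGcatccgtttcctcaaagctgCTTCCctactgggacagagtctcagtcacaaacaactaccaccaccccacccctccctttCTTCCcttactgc
The core occurs 1 time in the windows of Cd34 and Rgcc, 2 times in that of Eng and 3 times in that of Robo4. RefSeq windows were at hand for 17 of the 35 members, 21 windows in all. Of these, 15 held GGAAG on either strand, 71.4%, as did 71.4% of all 32851 windows of that length. The SoxF core ACAAT was in 6 of 21, 28.6%, against 31% of all windows, and the CArG box that serum response factor binds was in 0 of 21, against 1.63%. The members' windows held these letters about as often as those of other genes, and a match is a description, not a bound site.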

How the data were processed

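Cardiomyocyte RNA of 12 mouse libraries in 4 groups of 3 was read as single ends of 100 nt after stranded poly(A) library preparation from 200 ng of RNA, and cardiomyocytes were separated by sedimentation for 10 min, per the labels' protocols. The table the authors deposited holds raw read counts per gene, not normalized, for 49568 genes, of which 21344 had no count. The submitters' processing notes list featureCounts, Subread 1.5.0p3, STAR 2.5.2b and Trimmomatic 0.36, with genome build GRCm38.p5. Their settings, the annotation, use of strand and treatment of reads with several matches were not given in the sources used here.

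From these counts edgeR 4.0.16 under R 4.3.3 was used for quasi-likelihood F tests, with TMM scaling, filterByExpr by group (14712 genes), all groups in 1 fit (8 residual degrees of freedom), with Benjamini-Hochberg adjustment over all genes tested and calls under 0.05. The SE is the log2 change divided by the square root of F. CPM use TMM-scaled totals. TPM and transcript lengths use the longest principal coding transcript in GENCODE mouse release 21. Log2 levels in the plots use a prior count of 2. No pair of libraries in a group was a duplicate. The scripts were tested on simulated data.

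The 35 members, the other gene lists and the alternatives were chosen with earlier results of these data known. Named members are those with the 3 highest TPM, any called, and the 5 with the smallest p per comparison. Other genes named are Mkl1, Mkl2 and up to 3 called per list and comparison; a few more were named after their values were seen. Alternatives were RLE and upper-quartile scaling, DESeq2 1.42.0, limma-voom 3.58.1, no low-count filter, only the groups compared, the replicate number as a block, a transcript-length trend removed with and without that block, and libraries left out.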

Additional observations from a re-analysis of the deposited data

How the results depend on the processing

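No member was called with all 12 libraries by edgeR, and the same held under RLE and upper-quartile scaling, with only the groups compared, and with limma-voom. With TAC in control, DESeq2 called 2 members higher (Plvap and Cd34, against 4.38% of all genes). Without a low-count filter 1 was called (Plvap, against 2.31%), and with the transcript-length trend removed 1 (Plvap, against 2.90%). Without both libraries that stood apart, dKO TAC replicate 2 and dKO sham replicate 1, 1 was called (Icam2, against 3.36%). The 12 settings that leave out 1 library gave 0 to 2 calls, the 2 without control TAC replicate 1 (Plvap and Cd34, against 5.83%). With TAC in dKO, DESeq2 called 3 members lower, against 7.79% of all genes. Without a low-count filter 2 were called (Tmem88 and Rgcc, against 2.5%), and with the length trend removed 1 (Flt1, against 5.59%). Without both libraries 9 were called, against 4.66%. With 1 library left out 0 to 3 were called, the 3 without dKO TAC replicate 2, against 2.38%. The median change with TAC in dKO was -0.772 without both libraries and ran from -0.651 to -0.183 with 1 left out. After TAC 1 member was called lower in dKO without both libraries (Tmem88), and none with 1 library left out. Without control TAC replicate 3, the 2 calls in dKO were Klf2 and Rgcc, against 3.22%. The cause of these differences was not tested. None of the 5 members with the smallest p in each comparison changed sign in any setting. Others did, such as Aplnr with TAC in dKO and Rgcc between genotypes after sham, at 0.03 and 0.12 with all libraries and -0.71 and -0.39 without both.

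Deviations of same-numbered libraries of different groups correlated between -0.474 and 0.350, with a median of 0.098. Those of other numbers correlated between -0.460 and 0.434, with a median of -0.075, and 4 of 12 libraries correlated best with their own number. The labels do not say what the numbers mark, so these values cannot decide whether they pair the samples. The fit with the replicate block called 0 members in each comparison, with a median of -0.445 for TAC in dKO, and 2 lower members (Flt1 and Tie1, against 4.98% of all genes) with the length trend removed as well. Every member lay above the floor of 3 counts in every library.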

Other observations

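Taken relative to the median of the 35 members in the same library, which removes the shifts that the members share, 2 of 35 members separated the 6 TAC libraries from the 6 sham libraries, both genotypes together. Both lay higher in TAC, against 5.72% of all genes tested on the same scale, a share near the members' own. Cd34 lay 0.91 to 1.31 above that median on the log2 scale in the sham libraries and 1.66 to 2.17 above it in the TAC libraries. Pecam1, the platelet-endothelial adhesion molecule, lay 1.44 to 1.90 above it in sham and 1.94 to 2.22 above it in TAC. No member lay lower in all 6 TAC libraries (0.51% of all genes), and Rgcc and Plvap overlapped on this scale. This measure was chosen after the values were seen, and it was not tested.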
